A study of Mus musculus with 8 samples.

Results

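The transporter genes followed here across individual mice are the amino acid carriers Slc38a2, Slc38a4, Slc1a5, Slc7a1, Slc7a2, Slc7a5, Slc7a6, Slc7a8 and Slc43a1 with the heavy chain Slc3a2, which makes 10 of the 24054 genes in the table. They were picked by name with results of the same mice in view, among them the high Slc7a8 value of a single mouse. The differences between groups given for these genes are therefore descriptions. For single members no p-value of that difference is printed, only whether it was under 0.05. Permutation p-values for correlations of members are printed, and they are descriptions for the same reason. The RNA came from the soleus (SOL), a slow hindlimb muscle, of male C57BL/6 mice. Their labels record a high fat diet, the methods do not say what the sequenced animals ate, and their ages are not given in the sources used here. The 4 MI4KO mice lack Irf4 in skeletal muscle through a Cre driven by Myl1, a gene of muscle fibers, and the 4 flox mice carry the floxed Irf4 alleles without Cre. A stranded poly(A) library was made from each mouse, and within a group mouse 1 has the lowest and mouse 4 the highest number in its label.

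Amino acids enter muscle fibers on membrane carriers that differ in the side chains they accept and in what drives them. Sodium-coupled carriers such as SNAT2 build up small neutral amino acids inside the cell, exchangers of the LAT type then trade part of that pool for leucine and other large neutral amino acids, and cationic carriers bring in arginine and lysine. The exchangers LAT1, LAT2 and y+LAT2 reach the cell surface only when joined to the heavy chain 4F2hc, and the leucine they bring in feeds the mTORC1 pathway that controls protein synthesis in muscle.

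Levels are TMM-normalized CPM, in which reads are scaled to library size with a factor (the trimmed mean of M-values) that centres the bulk of genes between libraries. The libraries held 13417512 to 16384565 reads on genes, and 3 reads correspond to 0.181 to 0.225 CPM. The 9 slow-fiber markers had summed levels of 35392 to 46621 CPM and Myh2, the fast IIa myosin that mouse SOL also holds, 12401 to 17110 CPM, so the markers of the labelled muscle were abundant in every mouse, while a list of 10 fast-fiber genes summed to 33250 to 48420 CPM. Irf4 itself was at 0.686, 1.46, 1.58 and 1.68 CPM in flox mice 1 to 4 and at 0.725, 0.840, 0.266 and 1.03 CPM in MI4KO mice 1 to 4, on 4 to 23 reads. Flox mouse 1 lay inside the MI4KO range, and for Irf4 the two-sided exact permutation p was 0.114 (n = 4 per group). Both groups hold a library that stands apart. Flox mouse 1 had a summed level of 14 liver genes of 199 CPM against 6.38 to 15.9 CPM in the other 7 mice, and MI4KO mouse 3 was the highest of the 8 mice for 30.9% of all genes tested. Members are therefore given by mouse, and results that rest on either mouse are given with and without it. In whole muscle, fewer cells of a type and less RNA per cell cannot be told apart.

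All 10 transporters were detected in every mouse, and the levels of MI4KO and flox SOL overlapped for each of them. The member that varied most between mice was Slc7a8, which was at 12.4 CPM in MI4KO mouse 3 and at 1.60 to 2.96 CPM in the other 7 mice. Slc38a2 was the most abundant member in reads and varied 2.30-fold between the highest and the lowest mouse. The median coefficient of variation over the 8 mice was 17.5% for the members and 11.4% for all genes tested. Nothing is read from this difference, since the high Slc7a8 value was in view when the members were picked. The genes were also not matched for level, and counting error alone gives 2.23% for Slc38a2 and 13.8% for Slc43a1. In limma, 0 of the 10 members passed an unadjusted p under 0.05 together with a change of 1.5-fold or more, limits that 0.219% of the 11865 genes tested passed (0.059% higher and 0.16% lower in MI4KO mice). One member, Slc38a4, had an unadjusted p under 0.05, as had 3.36% of all genes tested, and edgeR and DESeq2 on recovered reads also gave 1 such member each. No member and 0.0% of all genes had an adjusted p under 0.05 in limma, nor in edgeR or DESeq2, which gave 363 and 248 genes at an unadjusted p under 0.05. The log2 fold change (MI4KO minus flox, on log2(CPM + 1), which understates the change of low genes) was below 0 for 7 members and above 0 for 3, and it was below 0 for 56.2% of all genes. The median was -0.12 for the members and -0.01 for all genes tested. The groups did not overlap for 0 of the members and for 2.07% of all genes, and since the members were chosen on this contrast nothing is read from these shares.

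**Figure D1:**
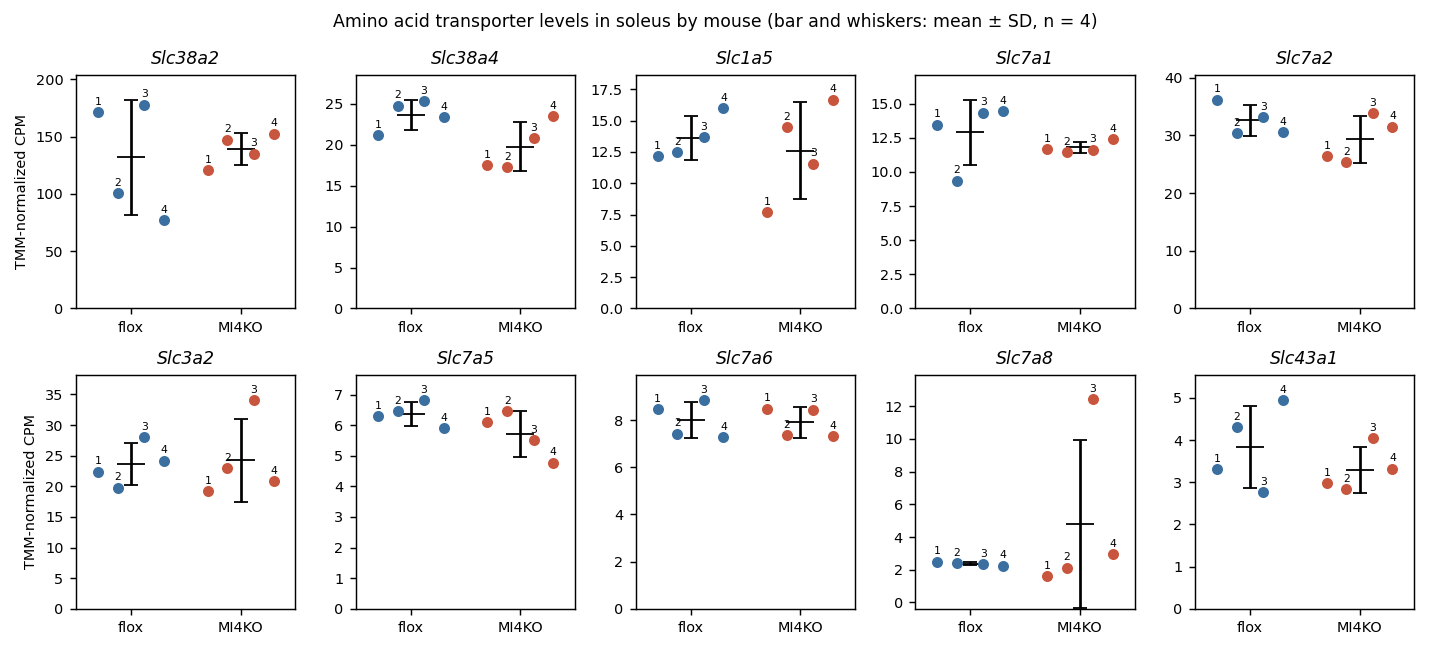
Level of each transporter in TMM-normalized CPM (vertical axis) in 4 flox mice (blue) and 4 MI4KO mice (red), with the mouse number beside each point and the mean ± SD as bar and whiskers. The groups overlap in all 10 panels, and MI4KO mouse 3 stands at 12.4 CPM for Slc7a8, above the 1.60 to 2.96 CPM of the other 7 mice.

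Slc38a2 encodes SNAT2, a sodium-coupled carrier of small neutral amino acids whose mRNA is known to rise when amino acids are scarce. The gene lies on the minus strand of chr15:96687392-96699730 (GENCODE M21, GRCm38). The bases just before its RefSeq start site (GRCm38.p6, chr15:96699729-96699978, minus strand) are shown since Slc38a2 has the most reads of the members, and no capitals are set because none of the 6 motifs searched below was found in it.
Slc38a2: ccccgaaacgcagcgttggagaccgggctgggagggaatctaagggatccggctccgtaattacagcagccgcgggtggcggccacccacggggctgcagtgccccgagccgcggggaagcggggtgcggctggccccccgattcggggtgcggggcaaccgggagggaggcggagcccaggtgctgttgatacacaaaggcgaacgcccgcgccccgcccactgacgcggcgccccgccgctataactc
The level of Slc38a2 was 172, 101, 178 and 77.2 CPM in flox mice 1 to 4 and 121, 148, 135 and 153 CPM in MI4KO mice 1 to 4. Flox mice 1 and 3 were higher than every MI4KO mouse and flox mice 2 and 4 were lower than every MI4KO mouse, so the MI4KO values lay inside the flox range. The means were 132 ± 50.6 CPM in flox and 139 ± 14.1 CPM in MI4KO mice (SD, n = 4 each), with a log2 fold change of 0.16 (standard error 0.22). The coefficient of variation was 38.4% among flox and 10.1% among MI4KO mice, while counting error over 1060 to 2752 reads alone gives 2.23%. Without flox mouse 4 the log2 fold change was -0.07, and without flox mouse 3 it was 0.33.

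Slc38a4 encodes SNAT4, a sodium-coupled carrier of neutral amino acids that is best known from liver and placenta, and it lies on the minus strand of chr15:96994820-97055956. Its level was 21.1, 24.8, 25.3 and 23.4 CPM in flox mice 1 to 4 and 17.5, 17.3, 20.8 and 23.4 CPM in MI4KO mice 1 to 4. MI4KO mice 1, 2 and 3 were lower than every flox mouse, and MI4KO mouse 4 lay among the flox mice. The means were 23.6 ± 1.85 and 19.8 ± 2.95 CPM (SD, n = 4 each), and the log2 fold change of -0.26 (standard error 0.11) was the farthest below 0 among the members. Leaving out 1 mouse gave log2 fold changes of -0.34 (without MI4KO mouse 4) to -0.20 (without MI4KO mouse 2), and the value was -0.19 when the fit held a term for the number range. The summed level of 10 endothelial markers was 475 to 578 CPM in flox and 376 to 548 CPM in MI4KO mice. Of the 10, 2 (Cdh5 and Kdr) had an unadjusted p under 0.05 by limma, a limit that 3.36% of all genes tested met. Both were lower in MI4KO mice (log2 fold changes -0.29 and -0.37). Neither met the limit without MI4KO mouse 1, the lowest for both, or without flox mouse 2 or 3. Cdh5 did not meet it without flox mouse 4, nor did Kdr without MI4KO mouse 3. Slc38a4 followed the endothelial average over the 8 mice with r = 0.760 (exact permutation p = 0.0243, adjusted p = 0.324, and rho = 0.667, exact permutation p = 0.0831), and r was 0.635 without flox mouse 4 and MI4KO mouse 1 and 0.322 once the mean of each range of mouse numbers was removed. The part of endothelial cells in the Slc38a4 levels was not tested. Slc38a4 was lowest in flox mouse 1 among the flox mice, the mouse with liver RNA, and its log2 fold change without that mouse was -0.31.

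Slc1a5 encodes ASCT2, an exchanger of glutamine, alanine, serine and other neutral amino acids, and it lies on the plus strand of chr7:16781340-16798274. It was at 12.2, 12.5, 13.7 and 16.03 CPM in flox mice and at 7.69, 14.5, 11.6 and 16.7 CPM in MI4KO mice. MI4KO mice held both the lowest and the highest value, with means of 13.6 ± 1.75 and 12.6 ± 3.89 CPM (SD, n = 4 each). The log2 fold change was -0.14 (standard error 0.18) with all mice and 0.06 without MI4KO mouse 1, the lowest. In that same mouse the summed levels of 7 adipocyte markers (181 CPM), 10 endothelial markers (376 CPM) and 7 fibroblast markers (306 CPM) were also the lowest of the 8 mice. Not every single marker was lowest there. Plin1 (adipocyte), Cldn5 (endothelial) and Dcn, Lum and Pi16 (fibroblast) were lowest in MI4KO mouse 3. Emcn (endothelial) was lowest in flox mouse 1, and the other markers of these lists in MI4KO mouse 1. The adipocyte sums were 240.2 to 302 CPM in flox and 181 to 271 CPM in MI4KO mice, and the fibroblast sums were 386 to 507 and 306 to 495 CPM. Fabp4 made up most of the adipocyte sums, at 212 to 263 CPM in flox and 170 to 224 CPM in MI4KO mice. Of the adipocyte markers, Adipoq, Plin1, Cidec and Lep were highest in MI4KO mouse 4, Retn in MI4KO mouse 2, and Cfd and Fabp4 in flox mouse 2. Every marker of the 3 lists had reads, and their part in the Slc1a5 levels was not tested.

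Slc7a1 and Slc7a2 encode the cationic carriers CAT1 and CAT2, which take up arginine and lysine. Slc7a1 (minus strand of chr5:148327410-148399904) was at 13.5, 9.36, 14.3 and 14.4 CPM in flox mice and at 11.7, 11.4, 11.6 and 12.4 CPM in MI4KO mice. The 4 MI4KO mice were close to each other and lay between flox mouse 2 and the other flox mice. The log2 fold change of Slc7a1 was -0.10 (standard error 0.13) and -0.24 without flox mouse 2. Slc7a2 (plus strand of chr8:40862396-40922308) was at 36.2, 30.5, 33.2 and 30.6 CPM in flox mice and at 26.5, 25.4, 33.9 and 31.5 CPM in MI4KO mice. MI4KO mice 1 and 2 were below every flox mouse, and MI4KO mice 3 and 4 lay among them. The log2 fold change of Slc7a2 was -0.15 (standard error 0.10). Its highest value was that of flox mouse 1, and as Slc7a2 is also a liver gene, the value without that mouse is given, -0.10. An exon of the antisense transcript Gm26584 overlaps Slc7a2, and since the strand setting of the authors' counting is not given in the sources used here, reads of the pair may not have been told apart.

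**Figure D2:**
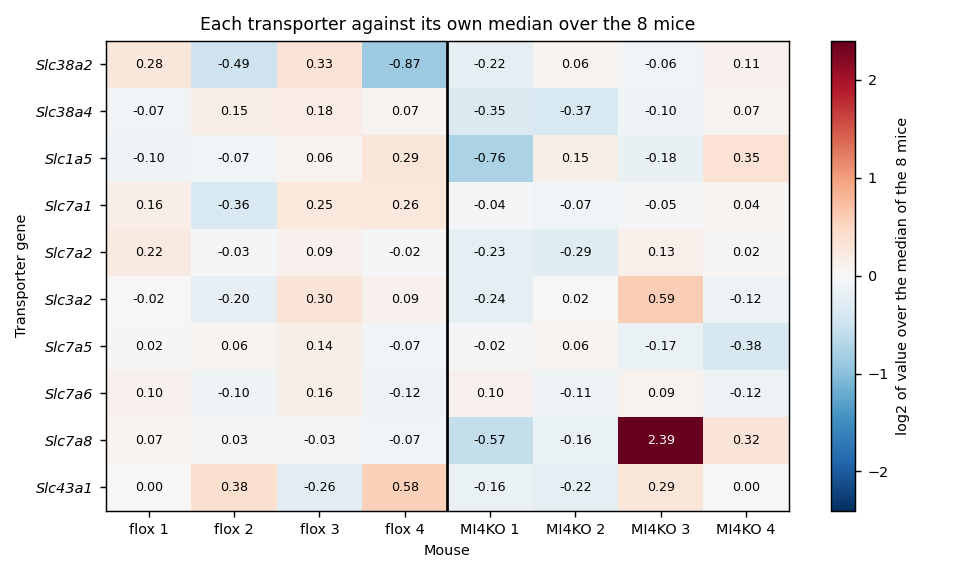
Level of each transporter (rows) in each mouse (columns) as the log2 of its CPM value over the median of the 8 mice, with red above and blue below the median and the line separating flox from MI4KO mice. The largest departure is Slc7a8 in MI4KO mouse 3 (2.39), followed by Slc38a2 in flox mouse 4 (-0.87) and Slc1a5 in MI4KO mouse 1 (-0.77).

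Slc3a2, the gene of the heavy chain 4F2hc (minus strand of chr19:8706882-8723369), was at 22.4, 19.8, 27.99 and 24.2 CPM in flox mice and at 19.2, 23.0, 34.1 and 20.8 CPM in MI4KO mice. MI4KO mouse 3 was the highest and the other 3 MI4KO mice lay within or just below the flox range. The means were 23.6 ± 3.45 and 24.2 ± 6.75 CPM (SD, n = 4 each), and the log2 fold change was 0.01 (standard error 0.16) with all mice and -0.16 without MI4KO mouse 3. Slc7a5, which encodes LAT1 (minus strand of chr8:121881150-121907694), was at 6.30, 6.45, 6.83 and 5.90 CPM in flox mice and at 6.09, 6.46, 5.52 and 4.77 CPM in MI4KO mice. Slc7a6, which encodes y+LAT2 (plus strand of chr8:106168857-106198706), was at 8.48, 7.42, 8.85 and 7.29 CPM in flox mice and at 8.49, 7.37, 8.44 and 7.31 CPM in MI4KO mice. These light chains were the steadiest members: the coefficient of variation over the 8 mice was 10.7% for Slc7a5 and 8.35% for Slc7a6, where counting error alone gives 10.6% and 9.25%. Their log2 fold changes were -0.14 (standard error 0.11) and -0.02 (standard error 0.10).

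Slc7a8 encodes LAT2, the light chain of an exchanger for small and large neutral amino acids, and it lies on the minus strand of chr14:54722209-54781946. The 250 bases before its RefSeq start site (GRCm38.p6, chr14:54781887-54782136, minus strand, a start site inside the gene as GENCODE draws it) are shown because this gene carries the largest departure of a single mouse, and no capitals are set because no motif was found.
Slc7a8: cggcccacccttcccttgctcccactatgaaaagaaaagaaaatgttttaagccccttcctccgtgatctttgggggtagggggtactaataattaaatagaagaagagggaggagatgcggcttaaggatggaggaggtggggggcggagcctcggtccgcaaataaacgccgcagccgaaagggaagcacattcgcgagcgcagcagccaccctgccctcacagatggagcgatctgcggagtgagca
Slc7a8 was at 2.49, 2.43, 2.33 and 2.26 CPM in flox mice 1 to 4 and at 1.60, 2.13, 12.4 and 2.96 CPM in MI4KO mice 1 to 4. MI4KO mouse 3 was 4.20 times the next highest mouse and 5.35 times the median of the other 7. That value rests on 187 reads (exact 95% Poisson interval 10.7 to 14.4 CPM), against 22 to 49 reads in the other mice, whose intervals reached up to 3.92 CPM, and the intervals cover counting error only. The mean was 2.38 ± 0.105 CPM in flox and 4.78 ± 5.13 CPM in MI4KO mice (SD, n = 4 each), a ratio of 2.01, and the ratio was 0.938 without MI4KO mouse 3. On the log2 scale the difference was 0.43 (standard error 0.39) with all mice and -0.09 without that mouse. By the ratio of MI4KO mouse 3 to the next highest mouse, Slc7a8 ranked 9 of 11865 genes, behind Selp, Mt2, Mt1, Icam1, Arrdc2, Fkbp5, 1500012K07Rik and Gbp10. That mouse was the highest and more than 2 times the next highest for 66 genes, which is 0.556% of those tested.

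Among the genes whose log2 levels followed Slc7a8 most closely over the 8 mice were Slc4a7, Maff, Icam1 and Mt1, with Pearson's r of 0.986, 0.985, 0.983 and 0.983. Slc4a7 encodes a sodium bicarbonate carrier, Icam1 an adhesion molecule for leukocytes and Mt1 a metallothionein. All of them were highest in MI4KO mouse 3, where Mt1 was at 191 CPM against 17.8 to 26.3 CPM elsewhere and Maff at 27.7 CPM against 6.46 to 9.92 CPM. Over the other 7 mice r was 0.906 for Slc4a7, and it was 0.783, 0.701 and 0.612 for Maff, Icam1 and Mt1. The points share their libraries, and these genes were picked for the highest r among 11865, so the values are descriptions.

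Relative to the length of the longest annotated transcript, Slc7a8 was the least abundant of the 4 genes of the 4F2hc system among the members in 7 mice. By the same length it was the most abundant light chain in MI4KO mouse 3. Per kilobase of the longest annotated transcript, the genes of the 6 light chains known to join 4F2hc (Slc7a5, Slc7a6, Slc7a7, Slc7a8, Slc7a10 and Slc7a11) summed to 7.45 CPM per kb in that mouse and to 4.63 to 5.69 CPM per kb in the others. Slc7a8 made up 40.8% of that sum in MI4KO mouse 3 and 8.45% to 14.7% in the others. Slc3a2 was also highest there, at 12.1 against 6.81 to 9.95 CPM per kb. The ratio of light chains to Slc3a2 was 0.615 in MI4KO mouse 3, inside the 0.560 to 0.765 of the other mice, and 0.364 against 0.503 to 0.681 when Slc7a8 was left out of the sum. These orders, shares and ratios depend on the transcript length used. With the median length of the annotated transcripts, Slc7a6 had a mean of 11.5 CPM per kb over the 8 mice. Slc7a8 has a single annotated coding transcript and stayed at 3.04 CPM per kb in MI4KO mouse 3, below that mean.

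**Figure D3:**
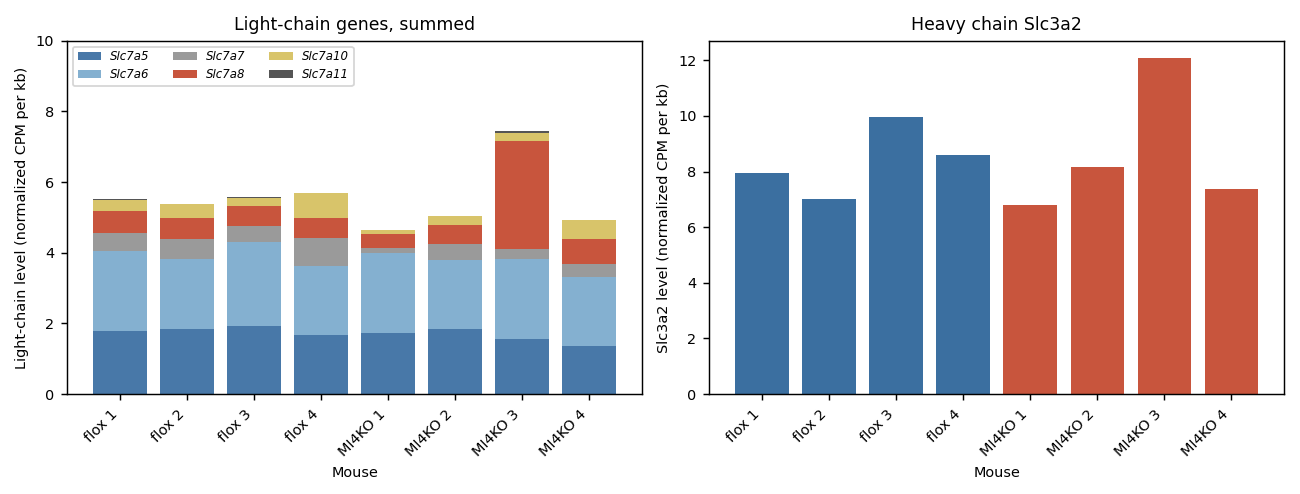
Left, summed level in CPM per kb of the longest annotated transcript for the 6 light-chain genes of 4F2hc in each mouse, stacked by gene. Right, level of the heavy chain Slc3a2 in the same measure in flox (blue) and MI4KO (red) mice. MI4KO mouse 3 has the highest light-chain sum (7.45), with 40.8% of it from Slc7a8, and the highest Slc3a2 (12.1).

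Slc43a1 encodes LAT3, which carries large neutral amino acids without sodium or exchange, and it lies on the plus strand of chr2:84838850-84863594. The 250 bases before its RefSeq start site (GRCm38.p6, chr2:84840073-84840322, plus strand, again a start site inside the GENCODE gene) are shown because they hold the one motif match among the sequences printed, an E-box (CACGTG, in capitals) 64 bases before the start site.
Slc43a1: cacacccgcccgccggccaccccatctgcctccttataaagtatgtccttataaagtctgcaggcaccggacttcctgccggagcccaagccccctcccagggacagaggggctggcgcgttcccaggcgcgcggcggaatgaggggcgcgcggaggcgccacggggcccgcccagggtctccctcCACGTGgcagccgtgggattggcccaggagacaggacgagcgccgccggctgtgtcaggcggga
Slc43a1 was at 3.30, 4.30, 2.78 and 4.95 CPM in flox mice and at 2.97, 2.84, 4.06 and 3.32 CPM in MI4KO mice, on 37 to 68 reads. The MI4KO mice lay inside the flox range, with a log2 fold change of -0.15 (standard error 0.16). Leaving out 1 mouse gave -0.05 (without flox mouse 4) to -0.27 (without flox mouse 3), and -0.24 without MI4KO mouse 3. Promoter windows of 300 bases were given for 7 of the 10 members (11 windows, RefSeq) and not for Slc7a2, Slc7a5 and Slc1a5. They were searched on both strands for an IRF element (GAAA and GAAA, 2 bases apart, in 3.44% of all 32851 windows), the CEBP-ATF composite (TGATGNAA, 3.97%), a glucocorticoid receptor palindrome (GNACA and TGTNC, 3 bases apart, 0.475%), a STAT element (TTCNNNGAA, 8.3%), an NF-kB element (GGG and TTTCC, 2 bases apart, 1.63%) and the E-box (7.15%). Besides the E-box of Slc43a1, a STAT match stood 146 bases before a start site of Slc7a1, and no other match was found. Any of these letters may lie outside the windows.

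The order of levels per kilobase of the longest transcript, as the mean of 8 mice, was Slc38a2 (29.1 CPM per kb), Slc3a2 (8.50), Slc38a4 (5.52), Slc1a5 (4.74), Slc7a2 (3.92), Slc7a6 (2.12), Slc7a1 (1.72), Slc7a5 (1.72), Slc43a1 (1.15) and Slc7a8 (0.876). Slc38a2 made up 49.0% of the summed level, and its lowest mouse (16.6 CPM per kb) was above the highest of Slc3a2 (12.1 CPM per kb). The ranges of the neighbours Slc38a4, Slc1a5 and Slc7a2 overlapped (4.39 to 6.43, 2.78 to 6.03 and 3.21 to 4.58 CPM per kb), as did those of Slc7a6, Slc7a1 and Slc7a5. Slc43a1 (0.899 to 1.60) and Slc7a8 overlapped through MI4KO mouse 3 (3.04), since Slc7a8 was at 0.391 to 0.725 CPM per kb in the other 7 mice, with a mean of 0.567. The order depends on the transcript length used, and with the median length of the annotated transcripts Slc3a2 stood first (37.0 CPM per kb) and Slc38a2 second (29.1 CPM per kb).

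The wider family was read from 46 listed genes of other plasma membrane and lysosomal amino acid carriers. A row was found for 45 of them, 6 had no read in any mouse (Slc6a5, Slc6a14, Slc7a9, Slc7a12, Slc36a3 and Slc38a8), and 19 were tested. None of the 19 passed both limits in limma, against 0.219% of all genes tested. An unadjusted p under 0.05 was found for 1 of them and for 3.36% of all genes tested. In edgeR and DESeq2 1 passed both limits, which was Slc7a7 in each. The median log2 fold change of the 19 was -0.01, as for all genes. Per kilobase, the highest were Slc38a3 (36.9 CPM per kb), the gene of the glutamine carrier SNAT3, Slc6a6 (31.3), the taurine carrier, Slc38a10 (24.0), Slc43a2 (17.7), which encodes LAT4, and Slc16a10 (3.36), which encodes the aromatic amino acid carrier TAT1. Of these, Slc38a3 and Slc6a6 stood above Slc38a2 in the same measure as means of the 8 mice. Both means lay within the 16.6 to 38.2 CPM per kb that Slc38a2 spanned between mice. The order depends on the transcript length used. With the median length, Slc6a6 (310 CPM per kb), Slc43a2 (57.6) and Slc38a3 (47.3) stood above Slc38a2 (29.1). Slc7a7, the gene of y+LAT1, was at 1.18, 1.32, 1.05 and 1.82 CPM in flox mice and at 0.290, 1.03, 0.665 and 0.846 CPM in MI4KO mice, on 4 to 25 reads. Every MI4KO mouse was below every flox mouse, with a log2 fold change of -0.47 and a standard error of 0.18 (limma, unadjusted p = 0.022, adjusted p = 1.0). The unadjusted p was 0.072 both without MI4KO mouse 1 and without flox mouse 4 (limma). Groups without overlap were found for 1 of the 19 and for 2.07% of all genes tested. Among the 19 tested, Slc7a7, Slc1a4 and Slc38a6 varied most between mice, by 6.28-fold, 3.47-fold and 2.50-fold. A ratio over 2 between the highest and the lowest mouse was found for 3 of the 10 members (Slc7a8, Slc38a2 and Slc1a5), for 6 of the 19 others and for 15.8% of all genes tested. These shares were not matched for level and the members were picked with values in view, so nothing is read from them.

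**Figure D4:**
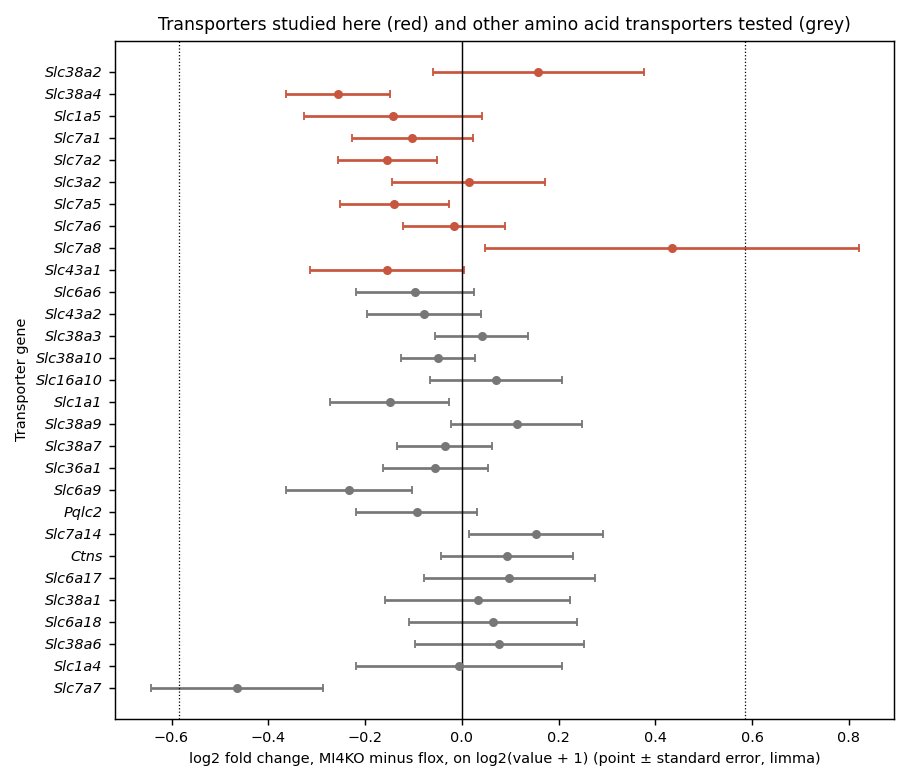
Log2 fold change (MI4KO minus flox, log2(CPM + 1)) with its standard error from limma for the 10 members (red) and the 19 other amino acid transporters tested (grey), with dotted lines at 1.5-fold. Slc7a8 has the widest error of the members (0.39), and Slc7a7 (-0.47) lies farthest below 0.

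Genes around the carriers were read from lists. Of 28 genes of the amino acid response, which ATF4 drives when amino acids are scarce, 26 were tested and 3 had an unadjusted p under 0.05 in limma (3.36% of all genes), with none past both limits. Cth, the enzyme that makes cysteine from cystathionine, was at 1.68 to 2.54 CPM in MI4KO and 1.02 to 1.43 CPM in flox mice, with no overlap and a log2 fold change of 0.39 ± 0.15 (limma estimate ± standard error, unadjusted p = 0.019, adjusted p = 1.0). For Cth it was 0.30 without MI4KO mouse 1 (limma, unadjusted p = 0.066). Stc2, a secreted stress glycoprotein, was at 0.399 to 1.67 CPM in MI4KO and 1.88 to 2.33 CPM in flox mice, without overlap, and its log2 fold change was -0.53 ± 0.19 (limma, unadjusted p = 0.018, adjusted p = 1.0). Without MI4KO mouse 3 that of Stc2 was -0.32. Cth rests on 14 to 35 reads and Stc2 on 6 to 32 reads per mouse. Groups without overlap were found for 2 of the 26 and for 2.07% of all genes tested. Vldlr was the third, with a log2 fold change of 0.19 (standard error 0.09) and 0.11 without MI4KO mouse 3, and its unadjusted p by limma was over 0.05 in 6 of the 8 fits that left out 1 mouse. Asns, asparagine synthetase, varied from 0.486 CPM in flox mouse 2 to 2.26 CPM in MI4KO mouse 3, on 7 to 34 reads. Atf4 itself was at 158 to 193 CPM in flox and 155 to 206 CPM in MI4KO mice. Of 34 listed genes of amino acid sensing by mTORC1, 32 were tested and none had an unadjusted p under 0.05 in limma, which was not counted with the other tools. Rragb and Gatsl3 varied most between mice among them, by 2.76-fold and 2.34-fold.

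The list of 22 glucocorticoid-responsive genes was highest in MI4KO mouse 3 for 19 genes, with a summed level of 5147 CPM against 2852 to 3277 CPM in the other mice. That mouse was the highest for 30.9% of all genes tested. Pdk4 alone was at 2470 CPM there and at 1562 to 1860 CPM in the other mice. Foxo3, Angptl4 and Gadd45a were highest in other mice. None of the 22 had an unadjusted p under 0.05 between the groups in limma, which was not counted with the other tools. Mt2 and Mt1 varied most, by 35.7-fold and 10.7-fold. Over the 8 mice the log2 level of Slc3a2 rose with the average log2 level of the list, with Pearson's r = 0.907 (exact permutation p = 0.000893) and Spearman's rho = 0.905 (exact permutation p = 0.00456). Without MI4KO mice 1 and 3, the farthest on the list, r was 0.748, and over the 7 mice without MI4KO mouse 3 it was 0.819. Of 80 relations between members and list averages, 8 had an exact permutation p under 0.05 and none an adjusted one, the smallest being 0.0714 for this pair. The members and lists were chosen with results of these mice known, so the p-values of these relations are descriptions. For Slc7a8 and the same list r was 0.957 with and 0.501 without MI4KO mouse 3, so that the relation rests on that mouse. The summed level of 7 neutrophil markers was also highest in that mouse, 6.85 CPM against 1.55 to 2.36 CPM, with every marker detected in some mouse. S100a8, S100a9, Retnlg, Mmp8 and Csf3r were highest there, on only 7 to 27 reads each. Ngp had no read there, and Cxcr2 (1.40 CPM) lay inside the 0.600 to 1.69 CPM of the other mice. The part of neutrophils in the transporter levels of MI4KO mouse 3 was not tested.

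Slc1a5 rose with the adipocyte average (r = 0.886, exact permutation p = 0.00432, and rho = 0.833, exact permutation p = 0.0154, n = 8 mice) and with the fibroblast average (r = 0.849, exact permutation p = 0.00375, and rho = 0.857, exact permutation p = 0.0107). The adjusted p was 0.115 for both, and r was 0.508 and 0.611 without MI4KO mice 1 and 3. Slc7a6 fell as the fibroblast average rose (r = -0.860, exact permutation p = 0.0202, adjusted p = 0.324, and rho = -0.857, exact permutation p = 0.0107). Its coefficient of variation over the 8 mice (8.35%) was no larger than counting error alone gives (9.25%). Slc7a6 also rose with the amino acid response average (r = 0.747, exact permutation p = 0.0351, adjusted p = 0.402). Slc1a5 rose with the endothelial average (r = 0.737, exact permutation p = 0.0451, adjusted p = 0.451). Without the 2 mice farthest on each list, r was 0.912 and -0.0867. Among the 45 pairs of members, 2 had an exact permutation p under 0.05 and none an adjusted one, the smallest being 0.544. Slc38a2 and Slc43a1 ran in opposite order (r = -0.815, exact permutation p = 0.0121, and rho = -0.738, exact permutation p = 0.0458), which rests on flox mice 2 and 4, without which r was -0.26. Slc3a2 and Slc7a8 had r = 0.787 with and 0.185 without MI4KO mouse 3. The mouse numbers fall into 2 ranges, not labelled as a batch, with 3 and 5 mice. With the mean of each range removed, r was 0.892 for Slc3a2 and the glucocorticoid list, and 0.862 and 0.828 for Slc1a5 and the adipocyte and fibroblast lists. It was -0.862 for Slc7a6 and the fibroblast list and -0.817 for Slc38a2 and Slc43a1. Within the 5 mice of the higher range the same pairs had r of 0.897, 0.691, 0.725, -0.910 and -0.948, given without a test for so few mice. Flox mice 2 and 4 are both in the higher range, so the values for Slc38a2 and Slc43a1 still hold the mice that pair rests on.

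**Figure D5:**
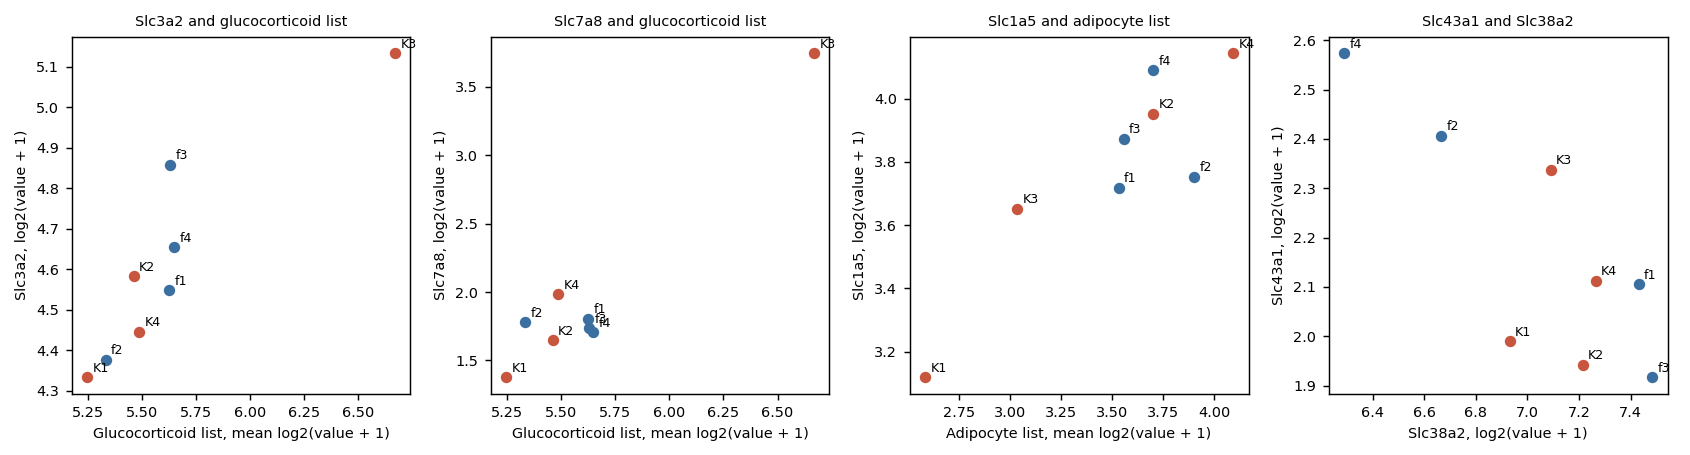
Log2(CPM + 1) levels of members against list averages or another member, 1 point per mouse (f, flox, blue; K, MI4KO, red, with mouse numbers). MI4KO mouse 3 stands apart on the glucocorticoid list (6.67) in the first pair of panels, MI4KO mouse 1 is lowest on both axes for Slc1a5, and flox mice 2 and 4 are at the low end of Slc38a2.

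Within the lower range of mouse numbers (flox mouse 1 against MI4KO mice 1 and 2) the log2 difference of Slc7a8 was -0.29, and within the higher range (flox mice 2, 3 and 4 against MI4KO mice 3 and 4) it was 1.13, and 0.25 with MI4KO mouse 4 alone. The difference also had opposite signs for Slc38a2 (-0.36 and 0.37), Slc7a2 (-0.47 and 0.06), Slc3a2 (-0.09 and 0.16) and Slc7a6 (-0.09 and 0.01), and it was below 0 in both ranges for the other 5 members. Without MI4KO mouse 3 the difference in the higher range was -0.18 for Slc3a2, -0.09 for Slc7a6 and 0.24 for Slc1a5, each of the opposite sign to that with it (0.16, 0.01 and -0.01). With all mice the difference of Slc38a4 was -0.27 in the lower and -0.14 in the higher range, and without MI4KO mouse 3 it was -0.06 in the higher range. Among the remaining marker lists, Cfd of the adipocyte list and Cyp2e1 of the liver list passed both limits, each lower in MI4KO mice (log2 fold changes -0.65 and -0.96, standard errors 0.28 and 0.37, unadjusted p = 0.039 and 0.022, adjusted p = 1.0 for both by limma), and Cyp2e1 was at 11.5 CPM in flox mouse 1. Without flox mouse 1 the log2 fold change of Cyp2e1 was -0.47, under 1.5-fold, and that of Cfd was -0.37 without MI4KO mouse 1, while its unadjusted p by limma was over 0.05 without that mouse, MI4KO mouse 3 or flox mouse 2, 3 or 4. Fast-fiber genes varied between mice in both groups, with Myh4 from 34.5 CPM in flox mouse 3 to 2496 CPM in flox mouse 2, and the part of fiber mix in the transporter levels was not tested.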

How the data were processed

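SOL muscle of 8 mice was sequenced as stranded poly(A) libraries with single reads of 50 bases. Per the labels and the paper's methods, the authors demultiplexed with bcl2fastq 2.17, mapped to mm10 transcripts with Bowtie2 2.1.0, estimated expression with RSEM 1.2.15 and normalized by TMM. They deposited 1 signal value (TMM-normalized CPM) for each gene in each mouse, and the authors' own columns (fold change, p-value, FDR) were not used. Of 24054 genes, 6086 had no read, and 27 symbols had been turned into dates. Every non-zero value came out as whole reads within 0.05 reads (100%), which allowed edgeR 4.0.16 and DESeq2 1.42.0 as alternatives. The chi-square between the recovered reads of any pair of mice was 6.06 to 52.4 times its degrees of freedom, so each counts as 1 sample.

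Groups were compared with limma 3.58.1 (R 4.3.3, mean-variance trend) on log2(value + 1) over genes at 1 or more in at least 4 mice, with Benjamini-Hochberg adjustment over all of them. On simulated counts for this comparison (11773 genes tested) limma called 99 of 99 genes changed 4-fold, 87 of 99 changed 2-fold and 8 of 11575 unchanged at an adjusted p under 0.05. These counts were drawn independently for each gene and mouse, without a library that stands apart as flox mouse 1 and MI4KO mouse 3 do. How often such changes would be found in the real libraries was not tested. Correlations used exact two-sided permutations (scipy 1.17.1). Lengths and positions are from GENCODE M21, matched by symbol. The mice of a group are separate animals by their numbers. The members and gene lists were chosen with earlier results of these data known. Named genes are the members, Irf4, the 5 genes most like Slc7a8 (1 of which is not reported here), and of each list the most abundant or most variable genes and those past the limits or without overlap, given for the marker lists only where past both limits or beside a member. Leaving single mice out for genes outside the members, leaving MI4KO mouse 3 out of its number range and removing range means from correlations were chosen after seeing the data. Alternatives were other pseudocounts, no filter, other scalings, moderation without trend or robust, the number range as covariate, mice left out, the count tests and the transcript length.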

Additional observations from a re-analysis of the deposited data

Results flagged for a closer look

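In groups of 4 mice, on the log2(CPM + 1) scale for single genes, the gap of the highest or lowest mouse to its neighbour over the whole range was compared with Dixon's critical value at 95% for 68 groups, of which 5 passed it where chance gives about 1 in 20, or 3.4. Slc7a1 in flox mouse 2 (9.36 CPM) lay below the other flox mice with a gap of 0.838 of the range on the log2 scale and 0.810 in CPM, which does not pass. Slc7a8 in MI4KO mouse 3 had a gap of 0.743 on the log2 scale, which does not pass, and 0.874 in CPM, which passes. The CPM scale was tried after seeing the data. That value was also in view when the members were picked, so nothing is read from its gap. Slc43a2 in MI4KO mouse 2 (110 CPM) lay below the other MI4KO mice with a gap of 0.867. The average log2 level of the glucocorticoid-responsive genes was lowest among flox mice in mouse 2 (5.33, gap 0.926) and highest among MI4KO mice in mouse 3 (6.67, gap 0.830). The average log2 level of the mTORC1 sensing genes was also highest among MI4KO mice in mouse 3 (5, gap 0.855).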

How the results depend on the processing

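Under 19 alternatives no member passed both limits or an adjusted p under 0.05. The log2 fold changes of Slc7a1, Slc7a2, Slc7a5, Slc38a4 and Slc43a1 kept their sign in all 19, those of Slc38a2 and Slc1a5 in 18, of Slc7a8 in 17, of Slc3a2 in 15 and of Slc7a6 in 13. Slc7a8 ranged from -0.09 without MI4KO mouse 3 to 0.99 in edgeR. Slc38a4, the member under an unadjusted p of 0.05, was not under it with the number range as a covariate, with library-size scaling, or without MI4KO mouse 1 or 2 or flox mouse 2, 3 or 4. Of the other transporters, 1 (Slc7a7) instead of 0 passed both limits with a pseudocount of 0.5 or 0.1, in edgeR and in DESeq2. Over all genes the count of 26 was 41 with a pseudocount of 0.5, 71 with 0.1, 13 with robust moderation, 65 in edgeR and 51 in DESeq2, and 18 to 57 with a mouse left out, 57 being without MI4KO mouse 4. The cause was not tested. Irf4 ranged from -0.31 to -0.88 and was under the filter without MI4KO mouse 4 or flox mouse 2, 3 or 4. Other scalings moved the median of all genes by under 0.1. With the median transcript length, Slc3a2 ranked 1, Slc38a2 2, Slc7a6 3, Slc38a4 4, Slc7a1 5, Slc7a2 6 and Slc1a5 7. No paired analysis was possible because the groups share no mouse number, and the replicate numbers only name mice. Depth limits Slc7a8, with 22 to 49 reads outside MI4KO mouse 3, and Slc43a1, whose counting error of 13.8% stands beside a spread of 22.0% between mice.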
